A study of Mus musculus with 30 samples.

Results

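The genes described here are Isg15 and the 5 genes whose products attach the ISG15 protein to other proteins or take it off again: Uba7, Ube2l6, Herc6, Trim25 and Usp18. They were followed by their mRNA in back skin of wild type (WT) and D6-deficient mice after the skin was inflamed with the phorbol ester TPA. All probe sets of the array whose annotated gene symbol was 1 of these 6 names were taken, whatever their values. This gave 13 probe sets out of 45037 on the array, and 6 genes out of 22121. All 13 were among the 36029 probe sets that passed the filter on low signal and were tested.

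ISG15 is a small ubiquitin-like protein made in response to type I interferon. It is coupled to lysines of other proteins (ISGylation) by a cascade like that of ubiquitin: the activating enzyme UBA7 (E1, also called UBE1L), the conjugating enzyme UBE2L6 (E2, also called UBCH8) and a ligase (E3), which in mice is mainly HERC6. TRIM25 can also act as a ligase for ISG15 and is best known as the ubiquitin ligase of the RNA sensor RIG-I, and USP18 removes ISG15 and, independently of that, holds back signalling from the interferon receptor subunit IFNAR2. Free ISG15 is also secreted and acts on leukocytes through the integrin LFA-1.

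Each of the 2 genotypes was studied at 5 times, with 3 female mice of 8 to 12 weeks on a mixed 129–C57BL/6 background per group, so that 30 arrays fell into 10 groups. TPA (50 uM) was put on the shaved back 3 times, 24 h apart, and whole skin was taken 1, 2, 4 or 6 days later. The day 0 controls were given acetone, the solvent, although their titles call them untreated. D6 (Ackr2, called Ccbp2 on this array) is an atypical receptor that takes up inflammatory CC chemokines, and the D6-deficient mice lack it in every cell, so the genotype effect cannot be placed in 1 cell type. Because whole skin was ground, more cells of a type and more RNA per cell cannot be told apart. Replicates were separate mice, and every p-value refers to the spread between them.

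Median signals of the arrays were 5.64 to 5.80 on the log2 scale. The authors' normalization gives all arrays 1 distribution of signal, so this likeness was set in advance. The median SD within groups was 0.15. No arrays were duplicates (highest correlation 0.994). Of 3 probe sets for the D6 gene, 1422112_at read 3.30 to 3.86 in the 15 D6-deficient arrays and 4.15 to 5.76 in the 15 WT arrays, while 1422111_at was lower by 0.69 on average with overlap, and 1437937_at differed by only -0.07. Markers of keratinocytes and fibroblasts, the main cells of skin, were strongly present, with summed signals on day 2 of 15.63 to 15.80 and 15.75 to 15.92, where single values of the series ran from 2.26 to 14.98. The hybridization controls separated the arrays into a brighter set of 17 and a dimmer set of 13, and both sets held arrays of both genotypes at day 2.

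Since the 6 genes were followed for their shared relation to interferon, the sequences upstream of start sites come first. They were searched for a strict form of the motif of the interferon-responsive factors, the string GAAANNGAAA. The factor ISGF3, which holds STAT2 and IRF9, binds interferon-stimulated response elements, built from GAAA repeats. The RefSeq promoter table used (GRCm38.p6) matched 5 of the 6 genes, all but Usp18. Of these, 3 are shown: Isg15, which has this string, and its E1 and E2, which do not. In the 150 bases before each start, written 5′ to 3′ on the gene's own strand, capitals mark every GAAA and its complement TTTC.

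Isg15, chr4:156200819-156200968, minus strand: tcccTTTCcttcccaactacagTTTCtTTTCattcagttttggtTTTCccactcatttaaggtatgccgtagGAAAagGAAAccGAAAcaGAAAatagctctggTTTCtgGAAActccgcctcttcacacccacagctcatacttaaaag

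Uba7, chr9:107975417-107975566, plus strand: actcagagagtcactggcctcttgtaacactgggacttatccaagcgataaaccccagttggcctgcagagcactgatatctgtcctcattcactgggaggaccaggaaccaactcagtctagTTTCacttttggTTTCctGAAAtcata

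Ube2l6, chr2:84798678-84798827, plus strand: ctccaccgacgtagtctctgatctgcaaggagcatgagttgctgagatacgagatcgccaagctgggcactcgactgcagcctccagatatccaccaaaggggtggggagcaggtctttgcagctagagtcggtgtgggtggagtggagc

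The motif GAAANNGAAA, searched on both strands with overlapping matches counted, occurred 3 times before Isg15, in 1 run of 4 GAAA units spaced by 2 bases that began 78, 72 and 66 bases upstream of the start. In windows of 250 bases before to 50 after the start, 3.44% of 32851 RefSeq promoters held this motif, and 0.0152% held it 3 times or more. Uba7, Ube2l6, Herc6 and Trim25 had no match in their windows. In the 150 bases before the start there were 3 single GAAA or TTTC units for Uba7, 4 for Herc6, 1 for Trim25 and 0 for Ube2l6. A match is only a run of letters, and its absence says only that these letters do not lie in this window. Looser forms of the element were not searched, so a gene without a match may still hold one. The genes are spread over the genome (RefSeq, GRCm38.p6): Ube2l6 at chr2:84798828-84810003, Isg15 at chr4:156199424-156200818, Herc6 at chr6:57580992-57665136, Usp18 at chr6:121245906-121270917, Uba7 at chr9:107975567-107984056 and Trim25 at chr11:88999403-89020294. Uba7 lies on the chromosome of the D6 gene, 13.9 Mb from it.

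The question put by the genotype comparison was which transcripts differ between D6-deficient and WT skin at the same time after TPA. On day 2, mRNA for the modifier, its E1, its E2, its main ligase and its protease was higher in D6-deficient skin: Isg15 13.0-fold, Uba7 2.29-fold, Ube2l6 2.44-fold, Herc6 2.18-fold and Usp18 7.47-fold. The quoted probe set of Trim25 was 1.30-fold higher, which did not pass the test. Taken by probe set, 10 of the 13 passed the test as higher in D6-deficient skin and 0 as lower (limma, adjusted p under 0.05 over 36029 probe sets), against 2.46% of all tested probe sets that were higher and 4.45% that differed either way. Of these, 5 were also more than 3-fold higher, against 0.411% of all tested probe sets. In all 13 probe sets, the 3 D6-deficient arrays of day 2 lay above the 3 WT arrays without overlap, which held for 10.4% of all tested probe sets, and 22.3% were apart in either direction. The median difference of the 6 genes was 1.24 (log2), beside -0.02 over all tested probe sets. With groups of 3 an exact permutation test reaches no p below 0.1, so the p-values rest on the model that pools the spread over all probe sets and groups.

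**Figure D1:**
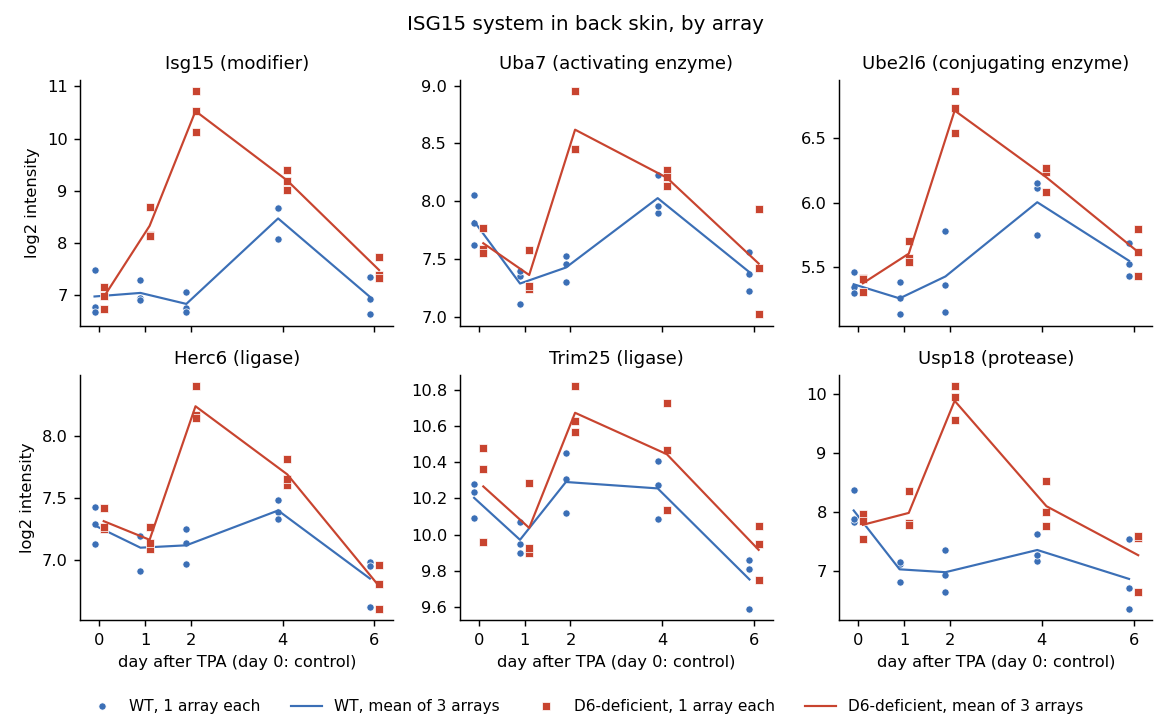
Signal (log2, y axis) of the quoted probe set of each of the 6 genes by day after TPA (x axis), with each point 1 array, lines through the group means, and WT and D6-deficient mice in different colours. On day 2 all D6-deficient points lie above all WT points in every panel, by 3.70 on average for Isg15 and by 0.38 for Trim25.

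Isg15, the modifier itself, is measured by 1 probe set, 1431591_s_at, whose symbol cell also names the pseudogene Gm9706, so that signal from the gene and its copy cannot be told apart. At day 0 it read 6.77, 7.48 and 6.67 (log2) in WT and 7.16, 6.73 and 6.99 in D6-deficient skin. On day 1 the WT arrays read 6.94, 6.90 and 7.28 and the D6-deficient arrays 8.15, 8.14 and 8.69. The genotypes overlapped before TPA and were apart 1 day after it. On day 2 the WT values were 6.76, 6.67 and 7.06, still at the level of the controls, and the D6-deficient values 10.53, 10.14 and 10.91, the highest of the series. On day 4 WT skin reached 8.67, 8.07 and 8.67, and D6-deficient skin had come down to 9.39, 9.01 and 9.19. Day 6 arrays read 7.35, 6.92 and 6.63 in WT and 7.73, 7.38 and 7.32 in D6-deficient skin.

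In the order of group means for Isg15, D6-deficient day 2 (10.53) stood first, then D6-deficient day 4 (9.19), WT day 4 (8.47), D6-deficient day 1 (8.33) and D6-deficient day 6 (7.48), with the other 5 groups between 6.83 and 7.04. D6-deficient day 2 and day 4 each stood clear of the group below, WT day 4 overlapped with D6-deficient day 1, and the 5 lowest overlapped neighbour by neighbour. Differences between genotypes in Isg15 were 3.70 ± 0.23 (log2, SE) on day 2 with an adjusted p of 9.9e-10 (limma), and -0.01 at day 0 (adjusted p = 0.99). On day 1 Isg15 was 2.44-fold higher in D6-deficient skin (log2 1.29, adjusted p = 0.028), 1 of only 7 probe sets, or 0.0194% of those tested, that were higher on that day (0.0555% differed either way). This day 1 call was lost without any 1 of the 6 arrays of the day (adjusted p between 0.051 and 0.15), and with only those 6 arrays in the fit the adjusted p was 0.15. On day 4 the difference was 0.73 (adjusted p = 0.19) and on day 6 it was 0.51 (adjusted p = 0.56).

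Against its own controls, Isg15 in WT skin changed by 0.07 on day 1 and by -0.14 on day 2, neither past the test, and rose 2.82-fold on day 4 (log2 1.50, adjusted p = 1.8e-05, limma). In D6-deficient skin it rose on day 1 (log2 1.37, adjusted p = 7.7e-05), on day 2 (11.9-fold, log2 3.57, adjusted p = 1.1e-10) and on day 4 (4.71-fold, log2 2.23, adjusted p = 4.8e-08). By day 6 it stood 0.52 above the D6-deficient controls (adjusted p = 0.093). The highest group of D6-deficient skin, on day 2, stood 2.06 (log2) above the highest group of WT skin, on day 4, a difference given without a test because the days were picked by their values.

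Uba7, the E1 specific for ISG15, is quoted by 1426971_at. In WT skin this read 7.62, 8.05 and 7.81 at day 0, 7.11, 7.35 and 7.40 on day 1, 7.52, 7.46 and 7.30 on day 2, 8.23, 7.90 and 7.96 on day 4, and 7.56, 7.22 and 7.37 on day 6. D6-deficient skin read 7.59, 7.55 and 7.77 at day 0, 7.24, 7.26 and 7.58 on day 1, 8.45, 8.45 and 8.95 on day 2, 8.27, 8.13 and 8.21 on day 4, and 7.43, 7.02 and 7.93 on day 6. Only on day 2 did the genotypes stand clear of each other with the D6-deficient arrays above, by 1.19 ± 0.18 (log2, SE; adjusted p = 1.1e-04, limma). In the WT arrays Uba7 was lower on day 1 than at day 0 (-0.54, adjusted p = 0.027), a call lost without WT day 0 replicate 2 or 3 or WT day 1 replicate 1 (adjusted p 0.13, 0.055 and 0.12). In D6-deficient skin it rose on day 2 (0.98, adjusted p = 9.7e-05) and was still raised on day 4 (0.57, adjusted p = 0.011).

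The other Uba7 probe sets did not all show this. The probe set 1426970_a_at, whose symbol cell also names Cdh29, differed by 1.02 on day 2 (adjusted p = 3.9e-06). By contrast 1437317_at read 6.93, 6.95 and 6.97 in WT and 6.996 to 7.12 in D6-deficient skin, a difference of 0.09 (adjusted p = 0.80), and its highest group among D6-deficient mice was day 4 (7.42, 7.26 and 7.32) in place of day 2. Over the 30 arrays the quoted probe set had a Pearson r of 0.95 with 1426970_a_at and of 0.58 with 1437317_at.

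Ube2l6, the E2 that takes ISG15 from UBA7, has 1 probe set, 1417172_at. WT values were 5.34, 5.30 and 5.46 at day 0, 5.26, 5.38 and 5.13 on day 1, 5.36, 5.15 and 5.78 on day 2, 6.11, 5.75 and 6.15 on day 4, and 5.69, 5.43 and 5.53 on day 6. Those of D6-deficient skin were 5.41, 5.31 and 5.41 at day 0, 5.57, 5.54 and 5.70 on day 1, 6.87, 6.74 and 6.54 on day 2, 6.24, 6.08 and 6.27 on day 4, and 5.80, 5.43 and 5.62 on day 6. As with Isg15, the D6-deficient arrays of day 2 were the highest of all 30, and WT skin had its highest mean on day 4. The day 2 difference was 1.29 ± 0.14 (log2, SE; adjusted p = 9.2e-07, limma). On day 1 the arrays did not overlap, but the difference of 0.35 did not pass the test (adjusted p = 0.53). Ube2l6 rose against its controls in WT skin on day 4 (0.64, adjusted p = 6.1e-04), and in D6-deficient skin on day 2 (1.34, adjusted p = 5.7e-08) and day 4 (0.82, adjusted p = 3.1e-05).

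Herc6, the ligase that couples most ISG15 in mouse cells, is quoted by 1431095_a_at. WT skin read 7.29, 7.43 and 7.12 at day 0, 6.91, 7.19 and 7.19 on day 1, 6.97, 7.14 and 7.25 on day 2, 7.39, 7.48 and 7.33 on day 4, and 6.98, 6.95 and 6.62 on day 6. D6-deficient skin read 7.25, 7.42 and 7.26 at day 0, 7.09, 7.14 and 7.27 on day 1, 8.40, 8.16 and 8.15 on day 2, 7.82, 7.60 and 7.65 on day 4, and 6.81, 6.60 and 6.96 on day 6. The genotypes were mixed on days 0, 1 and 6, and D6-deficient arrays stood above WT on days 2 and 4. The difference passed the test on day 2 (1.12 ± 0.12, log2, SE; adjusted p = 1.1e-06) and not on day 4 (0.29, adjusted p = 0.38). Against controls, Herc6 in D6-deficient skin rose on day 2 (0.93, adjusted p = 1.7e-06) and ended below them on day 6 (-0.52, adjusted p = 0.0017).

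All 3 further probe sets of Herc6 gave larger differences on day 2: 2.18 for 1438037_at (adjusted p = 4.1e-08), 1.84 for 1453757_at (adjusted p = 1.1e-07) and 2.32 for 1432026_a_at (adjusted p = 1.8e-05). The last lay near the bottom of the scale in WT skin, at 4.17, 3.66 and 3.89 on day 2, and read 7.04, 5.73 and 5.93 in D6-deficient skin. For 1438037_at the WT arrays read 6.20, 6.26 and 6.11 and the D6-deficient arrays 8.40, 8.08 and 8.62. The Herc6 difference ran from 1.12 to 2.32 by probe set, with the same direction in all 4. The fall below controls on day 6 was called only by the quoted probe set: 1438037_at stood at -0.40 (adjusted p = 0.11), 1453757_at at -0.05 and 1432026_a_at at 0.24, and the mean of the 4 did not pass.

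Trim25, which ubiquitinates RIG-I and can act as an ISG15 ligase, is quoted by 1419879_s_at, the one of highest mean among its 3 probe sets. On day 2 this read 10.30, 10.45 and 10.12 in WT and 10.63, 10.57 and 10.82 in D6-deficient skin, and at day 0 it read 10.24, 10.28 and 10.09 against 10.48, 9.96 and 10.36. The arrays of day 2 did not overlap, but the gap between the nearest arrays of the genotypes was small. The difference was 0.38 ± 0.15 (log2, SE; adjusted p = 0.18, limma), and 1425974_a_at gave 0.41 (adjusted p = 0.080). The third, 1426415_a_at, gave a larger difference. It read 6.38, 6.51 and 6.37 in WT and 7.85, 7.53 and 7.10 in D6-deficient skin on day 2, a difference of 1.07 ± 0.20 (adjusted p = 0.0018). With the 3 probe sets averaged, Trim25 was higher in D6-deficient skin on day 2 by 0.62 (adjusted p = 0.0039), so its call depends on which probe sets are read.

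By 1426415_a_at, Trim25 rose in both genotypes on days 1, 2 and 4, and it was the only one of the 13 probe sets that rose in WT skin on day 1. WT values went from 5.45, 5.56 and 5.29 at day 0 to 6.27, 6.09 and 6.37 on day 1 (adjusted p = 0.0052) and 7.02, 6.77 and 7.28 on day 4, a rise of 1.59 (adjusted p = 1.5e-06). D6-deficient values went from 5.53, 5.05 and 5.82 to 6.55, 6.18 and 6.85 on day 1 (adjusted p = 2.8e-04) and 7.60, 7.52 and 7.54 on day 4, a rise of 2.08 (adjusted p = 1.8e-08). The quoted probe set rose in D6-deficient skin on day 2 by 0.41 (adjusted p = 0.034), a call lost without D6-deficient day 0 replicate 2 (adjusted p = 0.22) or D6-deficient day 2 replicate 1 or 3 (0.055 and 0.13).

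**Figure D2:**
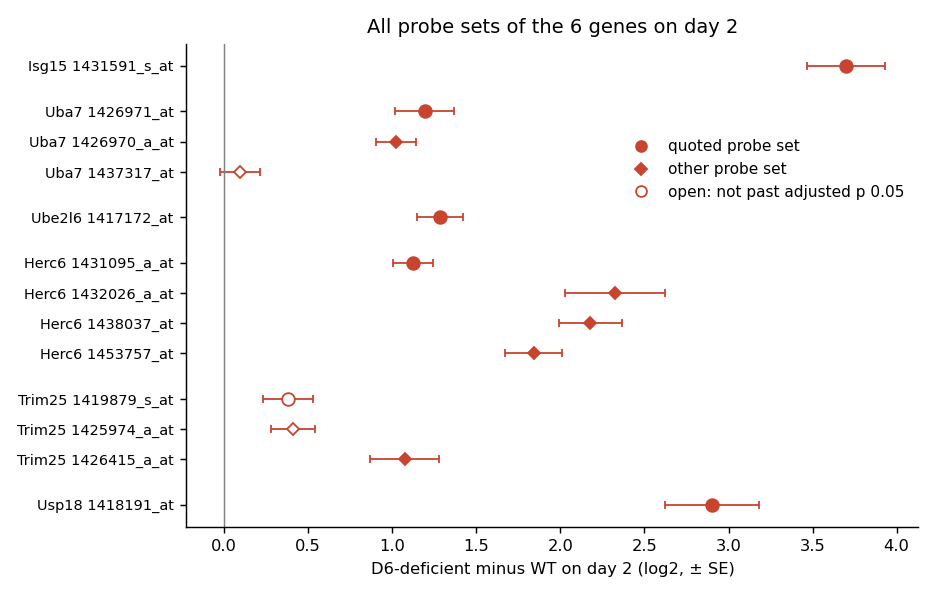
Difference between D6-deficient and WT skin on day 2 (log2, x axis) for each of the 13 probe sets (y axis), with bars of 1 SE and filled points for an adjusted p under 0.05. The values run from 0.09 for Uba7 1437317_at to 3.70 for Isg15, and the 3 that did not pass are that probe set and 2 of the 3 of Trim25.

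Usp18, the protease that takes ISG15 off and a brake on the type I interferon receptor, has 1 probe set, 1418191_at. WT skin read 7.83, 8.37 and 7.88 at day 0, 6.82, 7.13 and 7.15 on day 1, 6.94, 6.65 and 7.35 on day 2, 7.64, 7.16 and 7.27 on day 4, and 7.54, 6.35 and 6.71 on day 6. The controls were thus the highest WT group, which was not so for Isg15. D6-deficient skin read 7.97, 7.54 and 7.84 at day 0, 7.81, 7.78 and 8.36 on day 1, 9.95, 9.56 and 10.14 on day 2, 8.53, 7.76 and 8.00 on day 4, and 7.57, 6.65 and 7.59 on day 6. The D6-deficient arrays of day 2 stood above every other array, and on days 1 and 4 they also lay above WT without overlap.

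The day 2 difference in Usp18 was 2.90 ± 0.28 (log2, SE; adjusted p = 2.2e-07, limma), while 0.96 on day 1 (adjusted p = 0.32) and 0.74 on day 4 (adjusted p = 0.31) did not pass. On day 2 both genotypes had left the level of their controls. In D6-deficient skin Usp18 rose 4.29-fold over its controls on day 2 (log2 2.10, adjusted p = 2.6e-06), and in WT skin it fell on day 2 (log2 -1.05, adjusted p = 0.0072). WT skin was also below its controls on day 1 (-0.997, adjusted p = 0.011), lost without WT day 0 replicate 2 (0.062) or WT day 1 replicate 1 (0.055), and on day 6 (-1.16, adjusted p = 0.0044), lost without WT day 6 replicate 2 (0.051).

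**Figure D3:**
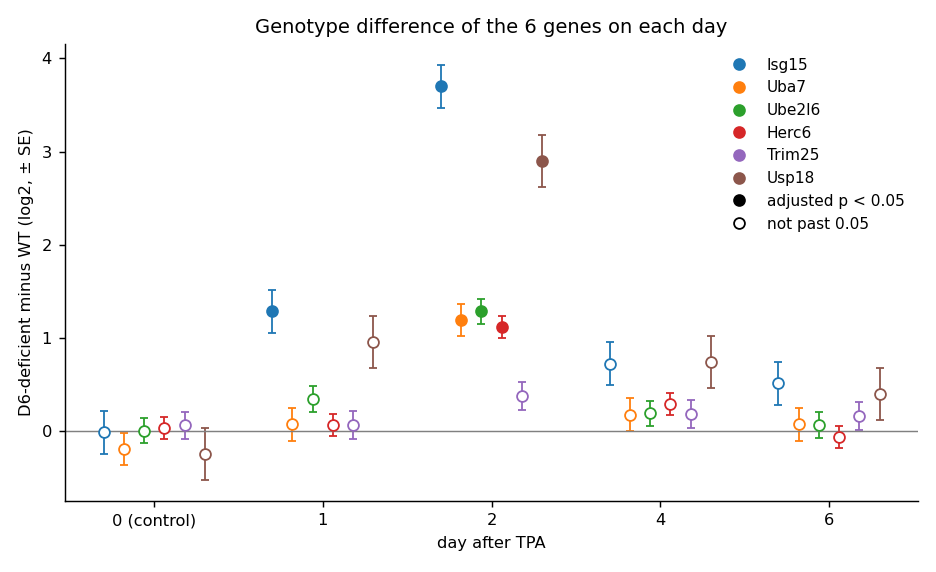
Difference between D6-deficient and WT skin (log2, y axis) for the quoted probe set of each gene by day after TPA (x axis), with bars of 1 SE and filled points for an adjusted p under 0.05. All 6 genes lie between -0.24 and 0.06 at day 0 and have their largest difference on day 2, and Isg15 is the only filled point on another day, day 1.

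By day, the genotype comparison called 0 of the 13 probe sets at day 0 (1.57% of all tested differed), 1 on day 1, 10 on day 2, 0 on day 4 (0.513% of all tested) and 0 on day 6 (0.125% of all tested). At an unadjusted p under 0.05 the limma counts were 0 at day 0, 6 on day 4 and 1 on day 6. Of all 36029 tested probe sets 5146, 3621 and 3015 reached it on these days. By the methods' t-test with Benjamini-Hochberg adjustment 0 of the 6 quoted probe sets passed on any of the 5 days, day 2 included. Its adjusted count on day 2 was also 0 in every list of genes and markers read below. Unadjusted it passed 3 of 6 on day 1, 6 on day 2, 2 on day 4 and 0 on days 0 and 6. The share of all tested probe sets that pass this t-test was not counted.

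Whether the response to TPA differed between genotypes was tested as the D6-deficient change from day 0 minus the WT change. On day 2 this was positive and past the test for 10 of the 13 probe sets, against 2.78% of all tested probe sets in that direction and 5.4% in either. Of them, 5 were also more than 3-fold, against 0.555% of all tested probe sets in that direction. Isg15 gave 3.71 (adjusted p = 5.0e-07), Usp18 3.14 (3.1e-05), Uba7 1.38 (0.0013), Ube2l6 1.28 (2.7e-04) and Herc6 1.09 (3.7e-04, limma). Trim25 gave 0.32 (adjusted p = 0.50) by the quoted probe set and 1.04 (adjusted p = 0.033) by 1426415_a_at, the second lost in 8 of the fits that leave out 1 array, with adjusted p from 0.057 to 0.10. For day 1 (0.0194% of all tested), day 4 (0.608%) and day 6 (0.025%) none of the 13 passed, and 3, 2 and 0 did so at an unadjusted p under 0.05. Of all 36029 tested probe sets 3494, 3949 and 2886 reached that unadjusted p. The methods' t-test, adjusted, called 0 of the 6 quoted probe sets on those 3 days, and unadjusted 3, 3 and 0. Here this t-test took the median of each genotype's controls as fixed, so it left out the spread between control mice, which limma includes.

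Over time in WT skin, few of the 6 quoted probe sets were raised over their controls, and 5 fell between day 4 and day 6. Against day 0, 0 were higher and 2 lower on day 1 (11.4% of all tested were higher and 12.7% lower), 0 and 1 on day 2 (11% and 15%), 2 and 0 on day 4 (17.3% and 21.8%), and 0 and 3 on day 6 (10.2% and 11.9%). The 2 that rose on day 4 were Isg15 and Ube2l6, and the 3 that were lower on day 6 were Usp18, Herc6 (-0.43, adjusted p = 0.012, lost without WT day 0 replicate 2 at 0.066 or WT day 6 replicate 3 at 0.078) and Trim25 (-0.45, adjusted p = 0.032, lost without WT day 0 replicate 1 at 0.087 or 2 at 0.097, or WT day 6 replicate 2 at 0.16). The Trim25 probe set 1426415_a_at stood at 0.46 on that day (adjusted p = 0.11), on the other side of its controls. From day 2 to day 4, 3 rose (7.16% of all tested): Isg15 by 1.64 (adjusted p = 2.3e-05), Uba7 by 0.60 (0.021) and Ube2l6 by 0.58 (0.0046, limma), of which the Uba7 call was lost without WT day 2 replicate 3 or WT day 4 replicate 1. From day 4 to day 6, 5 fell (10% of all tested were lower), with Isg15 at -1.50 (adjusted p = 3.8e-05) and Usp18 the exception at -0.49 (0.23). Of these falls, that of Trim25 was lost without 1 of 3 single arrays (adjusted p 0.054 to 0.083: WT day 4 replicate 1 or 3, or WT day 6 replicate 2), that of Ube2l6 without any of 4 (0.054 to 0.099: the same 3, or WT day 6 replicate 3) and that of Uba7 without WT day 4 replicate 1 (0.059).

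In D6-deficient skin, 1 of the 6 was higher than day 0 on day 1 (18.2% of all tested), 6 on day 2 (17.5%), 4 on day 4 (18.8%) and 0 on day 6 (16%). Lower were 0 on days 1, 2 and 4 (18.1%, 20.6% and 22.4% of all tested) and 1 on day 6 (15.7%), Herc6. By probe set, 12 of 13 had risen on day 2, beside those 17.5%. The 4 on day 4 were Isg15, Uba7, Ube2l6 and Herc6, where Herc6 (0.38, adjusted p = 0.014) was lost without D6-deficient day 4 replicate 1 (0.063). Usp18 was by then 0.31 above its controls (adjusted p = 0.39). From day 2 to day 4, 4 of the 6 fell (8.54% of all tested were lower): Usp18 by 1.78 (3.44-fold, adjusted p = 6.8e-05), Isg15 by 1.33 (2.3e-04), Herc6 by 0.55 (0.0021) and Ube2l6 by 0.52 (0.0094, lost without D6-deficient day 2 replicate 1 at 0.053, limma). Between day 4 and day 6 all 6 fell (14.5% of all tested were lower), from -0.53 for Trim25 (adjusted p = 0.0086) to -1.72 for Isg15 (adjusted p = 4.1e-06). Without D6-deficient day 4 replicate 1 or day 6 replicate 2 the calls of Trim25 (0.073 and 0.053) and of Usp18 (0.15 and 0.20) were lost. The time courses of the genotypes thus ran in opposite directions between day 2 and day 4 for Isg15 and Ube2l6, up in WT and down in D6-deficient skin.

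Within the brighter and the dimmer hybridization set, which hold 1 D6-deficient and 2 WT arrays, and 2 and 1, at day 2, the differences kept their sign for all 6 genes. Isg15 differed by 4.05 and 3.58, Usp18 by 3.14 and 2.81, Uba7 by 1.58 and 0.93, Ube2l6 by 1.08 and 1.44, Herc6 by 0.96 and 1.32, and Trim25 by 0.54 and 0.29. Sets this small carry no test.

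Some markers of infiltrating leukocytes were also higher in D6-deficient skin on day 2, where 2.46% of all tested probe sets were higher and 4.45% differed either way. Of 8 neutrophil markers 6 were higher, and their summed signal was 15.62 to 15.74 (log2) against 15.22 to 15.65 in WT. Of 9 monocyte and macrophage markers 5 were higher, with sums of 15.20 to 15.32 against 14.72 to 14.84. Plasmacytoid dendritic cells are a main source of type I interferon, and of their 8 markers 1 was higher, Spib, with sums of 11.29 to 11.49 against 11.59 to 11.67. Of 7 T cell markers 1 was higher, Cd4, with sums of 10.31 to 10.57 against 10.31 to 10.58, and of 5 muscle markers 1 was lower, with sums of 14.45 to 14.58 against 14.90 to 15.11. The plasmacytoid sum was thus lower along with the muscle sum, and is not read here as fewer plasmacytoid cells. From day 0 to day 2 its mean went from 12.66 to 11.64 in WT and from 12.47 to 11.41 in D6-deficient skin. The muscle mean went from 16.06 to 15.02 and from 15.88 to 14.53. Each sum adds linear signals, so its brightest marker weighs most, and it gives no number of cells. None of 5 keratinocyte, 5 fibroblast and 4 adipocyte markers passed, nor did any reach an unadjusted p under 0.05 in limma, and by the methods' t-test 2, 0 and 0 of them did so unadjusted and 0 adjusted. Keratinocyte sums were 15.63 to 15.68 in D6-deficient and 15.65 to 15.80 in WT skin. Array signal has no true zero, so no marker can be called absent. RNA quality, read as the 3′ minus 5′ signal of Actb, was 0.49 to 0.60 in D6-deficient and 0.53 to 0.64 in WT skin on day 2. At day 0 it was 0.89 to 1.14 in D6-deficient and 0.67 to 0.84 in WT skin. These controls did not overlap and lay above every TPA array, so changes from day 0 also compare arrays unlike in this measure. The same measure of Gapdh did overlap at day 0, at 0.06 to 0.33 in D6-deficient and 0.05 to 0.10 in WT skin. It reached 0.21 in D6-deficient skin on day 4, above every WT control. The part of RNA quality in the changes from day 0 was not tested. On day 4 the neutrophil sum in WT skin was 15.48 to 15.81, a range that overlaps that of D6-deficient skin on day 2, while Isg15 read 8.07 to 8.67. The monocyte and macrophage sum went the other way. On day 4 it was 14.64 to 14.89 in WT and 14.50 to 14.65 in D6-deficient skin, both below D6-deficient day 2. The part of these cells in the differences of the 6 genes was not tested.

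Transcripts of the interferon pathway, and of genes related to the 6, were read from lists of genes. Of 20 type I and III interferon ligands, 12 had a probe set on the array and 8 passed the filter on low signal. Of those 8, Ifna6, Ifna7 and Ifna12 share 1 probe set, which enters the counts and the median for each of them. None of the 8 differed on day 2 in limma (adjusted or unadjusted) or by the methods' t-test, with differences from -0.42 to 0.20 and a median of -0.16. Ifnb1, which encodes interferon beta, read 3.92, 3.85 and 3.95 in WT and 4.12, 4.22 and 3.98 in D6-deficient skin (0.20, adjusted p = 0.63), close to the lowest mean tested, 3.72. Ligand transcripts at this low signal limit what a difference could show.

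Of 8 genes from the interferon receptor to ISGF3, 4 were higher in D6-deficient skin on day 2 and 0 lower, with a median of 0.37. Irf7, the factor that amplifies interferon responses, read 7.29, 7.44 and 7.47 in WT and 10.87, 10.04 and 11.03 in D6-deficient skin, a difference of 3.24 (adjusted p = 3.5e-09). Of ISGF3, Stat2 was higher by 1.65 (4.0e-06) and Irf9 by 1.11 (3.8e-08, limma adjusted p). Of the receptor, Ifnar1 was higher by 0.42 (adjusted p = 0.023), and Ifnar2, the chain that USP18 binds, differed by 0.32 without passing. The receptor kinases Jak1 (0.00) and Tyk2 (0.03) and the factor Irf3 (0.00) differed little. The study itself took up Usp18, Isg15 and several of these genes from these samples, so their direction is not independent evidence.

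Of 8 genes of RNA and DNA sensing around TRIM25, 4 were higher and 0 lower, with a median of 0.38. These were Dhx58 (LGP2) at 2.04 (adjusted p = 2.4e-07), Ddx58, which encodes RIG-I, the substrate of TRIM25, at 1.50 (2.4e-09), Ifih1 (MDA5) at 1.34 (3.1e-05) and Rnf135 (Riplet, another ligase for RIG-I) at 0.50 (0.024, limma). Of 9 genes whose proteins have been reported to carry ISG15, 3 were higher and 0 lower, with a median of 0.07. Mx1, an antiviral GTPase, differed by 3.00 (1.5e-08) and Eif2ak2, the RNA-dependent kinase PKR, by 1.24 (6.6e-04), and the third was Ddx58, which stands in the sensing list as well. Both genes of LFA-1, the receptor through which free ISG15 acts, were higher, Itgal by 0.69 (adjusted p = 0.016) and Itgb2 by 0.76 (0.0090). Both are expressed by leukocytes, some of whose markers were higher in the same arrays.

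Enzymes of other modifiers gave other counts. Of 23 E2 enzymes of ubiquitin and its relatives, none passed (median 0.07), and none of 8 activating enzymes of other modifiers did (median 0.08). At an unadjusted p under 0.05 these counts were 4 and 0 in limma, where 5590 of all 36029 tested probe sets reached it. By the methods' t-test they were 4 and 1 unadjusted, and 0 adjusted. Of 12 genes listed as other ISG15 proteases and ligases or as Herc family members, 0 were higher and 2 lower. Of all tested probe sets 4.45% differed either way. The 2 lower genes were Usp13 (-0.82, adjusted p = 0.038) and Usp2 (-0.65, 0.0082). Of 14 other ubiquitin-like modifiers 1 was higher, Ubd (FAT10), by 1.86 (adjusted p = 6.3e-05). Ubd, which carries its protein to the proteasome, was the only one of these lists' genes to differ on day 4 also, by 2.18 (adjusted p = 5.3e-05), with 9.58, 10.13 and 9.91 in D6-deficient and 8.34, 7.12 and 7.62 in WT skin. Its highest D6-deficient group was day 4, while that of the quoted probe sets of the 6 genes was day 2.

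**Figure D4:**
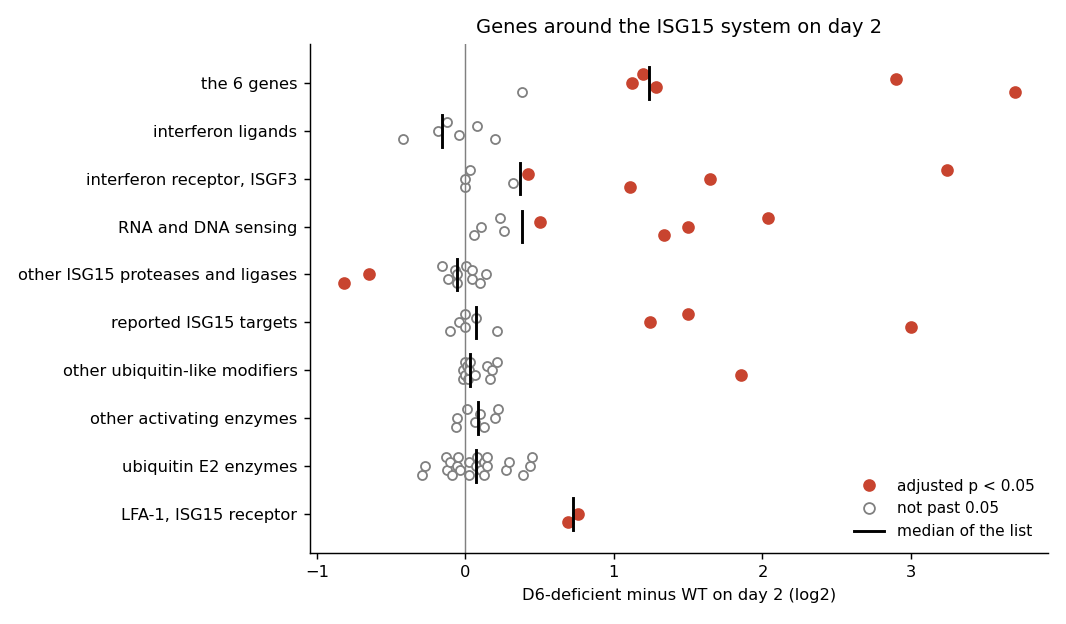
Difference between D6-deficient and WT skin on day 2 (log2, x axis) for the 6 genes and the related lists (rows), with each point 1 probe set, filled where the adjusted p is under 0.05, and a bar at each list's median. Ifna6, Ifna7 and Ifna12 share 1 point, which the median counts for each of them. The 6 genes have a median of 1.24 and the interferon ligands one of -0.16, beside -0.02 over all tested probe sets.

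The 6 genes moved together over the 30 arrays to different degrees. With Isg15, Pearson r was 0.92 for Ube2l6, 0.82 for Herc6, 0.81 for Usp18, 0.79 for Uba7 and 0.65 for Trim25. These values describe arrays that share groups, so the day 2 D6-deficient arrays weigh on all of them. Among 31912 tested probe sets with 1 gene symbol, those closest to Isg15 were Adar (r = 0.98), Rtp4 (0.98), Irf9 (0.96), Rnf114 (0.95) and Stat2 (0.94). Closest to Usp18 were Ifit1 (0.96), Ifit3 (0.94) and Ifih1 (0.94), and closest to Uba7 were Dtx3l (0.93), Parp14 (0.92) and Parp9 (0.92). For Ube2l6 they were Irf9 (0.93), Rnf114 (0.92) and Ddx58 (0.92), for Herc6 Parp14 (0.92), Rsad2 (0.91) and Rnf213 (0.91), and for Trim25 Dtx3l (0.85), Parp14 (0.85) and P2rx4 (0.84).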

How the data were processed

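Total RNA of whole back skin from 30 mice was hybridized to Affymetrix mouse arrays, 1 per mouse. Per the labels and methods, the authors ran RMA, which removes background, gives all arrays 1 distribution of signal (quantile normalization) and combines the probes of a set, so a shift common to most genes would be removed. They deposited 1 table of linear intensity values per probe set and array. A second deposited file holds only a sample sheet and was not used. Here log2 was taken. The table's 64 control probe sets and the 20% of the others with the lowest mean (9008) were left out, and 36029 were tested. One mean per group was fitted to all 30 arrays (20 residual degrees of freedom) with limma 3.58.1 in R 4.3.3 with Benjamini-Hochberg adjustment, and an adjusted p under 0.05 was called. The genotype contrasts and those against day 0 share arrays. The test was checked on simulated data. Python 3.11.15 and matplotlib 3.10.9 were used for the rest.

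A gene was quoted by its probe set of highest mean whose symbol cell names no other gene where there is one. From each list, up to 4 genes with the smallest adjusted p on day 2 were named, with the receptor and ISGF3 genes and Ifnb1, and the 5 (Isg15) or 3 genes most like each member in pattern. One gene of the lists is not reported here. Symbols are those of the deposited table. Members and lists were chosen with earlier results of these data known. Alternatives were no filter, median centring, fits to the contrast's arrays alone, replicate and hybridization-set terms, limma-trend, the methods' t-test, a 3-fold threshold, gene means and leaving out each array. The number of arrays per group (3) limits precision.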

Additional observations from a re-analysis of the deposited data

Results flagged for a closer look

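The response to TPA on day 2, relative to day 0, differed between D6-deficient and WT skin by the test of that difference itself (limma, adjusted p under 0.05) for 10 of the 13 probe sets, all larger in D6-deficient skin. For Isg15 the difference was 3.71 (log2), for Usp18 3.14, for Ube2l6 1.28, and for Uba7 1.38 by 1426971_at and 1.14 by 1426970_a_at. The 4 probe sets of Herc6 gave 1.09 (1431095_a_at), 2.20 (1438037_at), 1.85 (1453757_at) and 2.37 (1432026_a_at). For Trim25 only 1426415_a_at passed, with 1.04 (adjusted p = 0.033). Groups of 3 arrays were not examined for outlying arrays.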

How the results depend on the processing

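The counts of the 6 quoted genes past the threshold kept within 1.5 times their value under no filter, median centring and limma-trend. With a 3-fold threshold added they became 2 for the genotypes on day 2 and 2 relative to day 0, 0 for the genotypes on day 1, 0, 2, 1 and 0 in D6-deficient skin on days 1, 2, 4 and 6, and 1 for each of its 2 later steps. In WT skin they became 0 on each of the 4 days, 1 from day 2 to 4 and 0 from day 4 to 6. The methods' t-test, adjusted, gave 0 for the genotypes on days 1 and 2, 0 for D6-deficient skin from day 2 to 4 and on day 6, 1 for it from day 4 to 6, and 0 for WT skin on days 1, 2 and 6 and in both later steps. Unadjusted it gave 3 for the genotypes on day 1, 2 on day 4, 3 relative to day 0 on days 1 and 4, 2 in D6-deficient skin on days 1 and 6, 3 in its step from day 4 to 6 and 2 in WT skin on day 2. Fits to the contrast's arrays alone gave 0 for the genotypes on day 1 and 3 for D6-deficient skin from day 4 to 6. Gene means gave 0 for D6-deficient day 6 and 2 for WT day 2, and the hybridization set as covariate 2 for D6-deficient day 6.

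Leaving out each array in turn gave 5 to 5 genes for the genotypes on day 2, 5 to 5 relative to day 0, and 0 to 0 for the genotypes on day 1. In D6-deficient skin it gave 5 to 6 on day 2, 3 to 4 on day 4, 1 to 2 on day 6, 3 to 4 from day 2 to 4 and 4 to 6 from day 4 to 6. In WT skin it gave 0 to 2 on day 1, 1 to 1 on day 2, 2 to 3 on day 4, 1 to 3 on day 6, 2 to 3 from day 2 to 4 and 2 to 6 from day 4 to 6. With the replicate number as a block the count was 5 for the genotypes on day 2 and 2 for D6-deficient day 6. The numbers did not pair the arrays: same-numbered arrays of a day correlated at -0.18 to 0.38 (median -0.06), and 12 of 30 arrays were closest to their own number. For single probe sets, 4018 of 4260 recomputed values kept their side of the threshold, 169 fell below it and 73 came past it. Of values past it in either fit, 0 changed sign. Sign changes of values not past it were not counted. The Uba7 difference on day 1 (1426971_at), for example, went from 0.07 to as low as -0.04 with 1 array left out. The causes were not tested.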
